A study of Homo sapiens with 4 samples.

Results

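RAB GTPases are small proteins that switch between a GDP-bound and a GTP-bound form and, when GTP-bound, recruit the motors, tethers and coats that move one kind of membrane vesicle. Exchange factors load them with GTP, GTPase activating proteins switch them off, and GDP dissociation inhibitors carry the prenylated GDP form through the cytosol. In neurons and in tumours of the sympathetic lineage they are known for synaptic and dense-core vesicle release, receptor recycling and the building of the primary cilium. The genes described here are the protein-coding ones whose symbol is RAB, a number and at most 2 further characters. The rule found 64 genes among the 64252 gene IDs of the table, after 8 pseudogenes and 2 genes of RAB-interacting proteins with a matching symbol had been left out. They lie on 22 chromosomes, 7 of them on the X.

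RNA was sequenced from the established human neuroblastoma line SK-N-BE(2). Both groups carried a short hairpin RNA, a scramble hairpin in the control (shScb) and one against TTC8 in the knockdown (shTTC8), with 2 libraries each. The labels speak of transfected cells and name no day of harvest. Nothing in them says that replicate libraries are independent cultures, so p-values measure a spread that may be technical. How many hairpins were used is not stated, and an effect of lower TTC8 and an off-target effect of a hairpin cannot be told apart.

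The target, TTC8, is a BBSome gene, and the BBSome is the coat that moves membrane proteins through the base of the cilium. Counts of TTC8 were 9888 and 10398 under the scramble hairpin and 1130 and 1268 under the other, and its level fell from 193 ± 3.05 to 29.9 ± 1.09 CPM, the counts scaled to library size (SD, n = 2). Library totals ran from 38284663 to 55331449 counts, and 3 counts, the limit that a count of 0 allows, correspond to 0.0542 to 0.0784 CPM. Of 8 markers of the line's identity 6 were called lower and 1 higher, with summed levels of 8658 and 8970 CPM in shScb and 6201 and 6379 in shTTC8. The summed levels of 13 fibroblast and endothelial markers were 707 and 685 CPM in shScb and 480 and 464 in shTTC8, with 7 of the 8 tested called lower and PECAM1 at 0 in every library. The 8 Schwann cell and glia markers summed to 37.1 and 38.7 CPM against 15.8 and 14.3, with SOX10 and FOXD3 at 0. Of 5 tested, 1 was called lower, NGFR, which made up most of the sum in shScb. The 10 epithelial and blood cell markers summed to 24.4 and 23.9 CPM against 10.9 and 10.9, with CDH1, CD3E and HBB at 0. Of 6 tested, PTPRC and KRT19 were called lower. These sums differed between the groups, and their part in the results on the RAB genes was not tested. In RNA from whole cultures, fewer cells of a type and less RNA per cell cannot be told apart.

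Of the 64 RAB genes, 57 had enough counts to be tested. Of these 11 were called higher in shTTC8, 8 were called lower and 38 were not called, at an adjusted p under 0.05 in edgeR's quasi-likelihood test, adjusted over all 19610 genes tested. The calls came to 33.3% of the tested RAB genes, beside 31.9% of all genes and 39.2% of protein-coding genes. In this fit the share of RAB genes called was thus near the background. Among all genes 15.2% (2974) were called higher and 16.7% (3284) lower. Without shTTC8 replicate 1, 1880 of all genes were called higher, and 11 RAB genes. DESeq2 made 16 and limma-voom 18 of the same 19 RAB calls and no other, so each count of 0 given below for a role group was also 0 with these tools. The median log2 fold change was 0.02 for the RAB genes and 0.004 for all genes tested. The libraries of the groups did not overlap for 35 RAB genes, 20 with both shTTC8 libraries above and 15 with both below, where 65.5% of all genes did not overlap. In 5 RAB genes the change was called and at least 2-fold (RAB27B, RAB38, RAB4B, RAB3A and RAB6C), a class that held 5.29% of all genes. The members were chosen with earlier results of these data known, so these counts are descriptions.

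**Figure D1:**
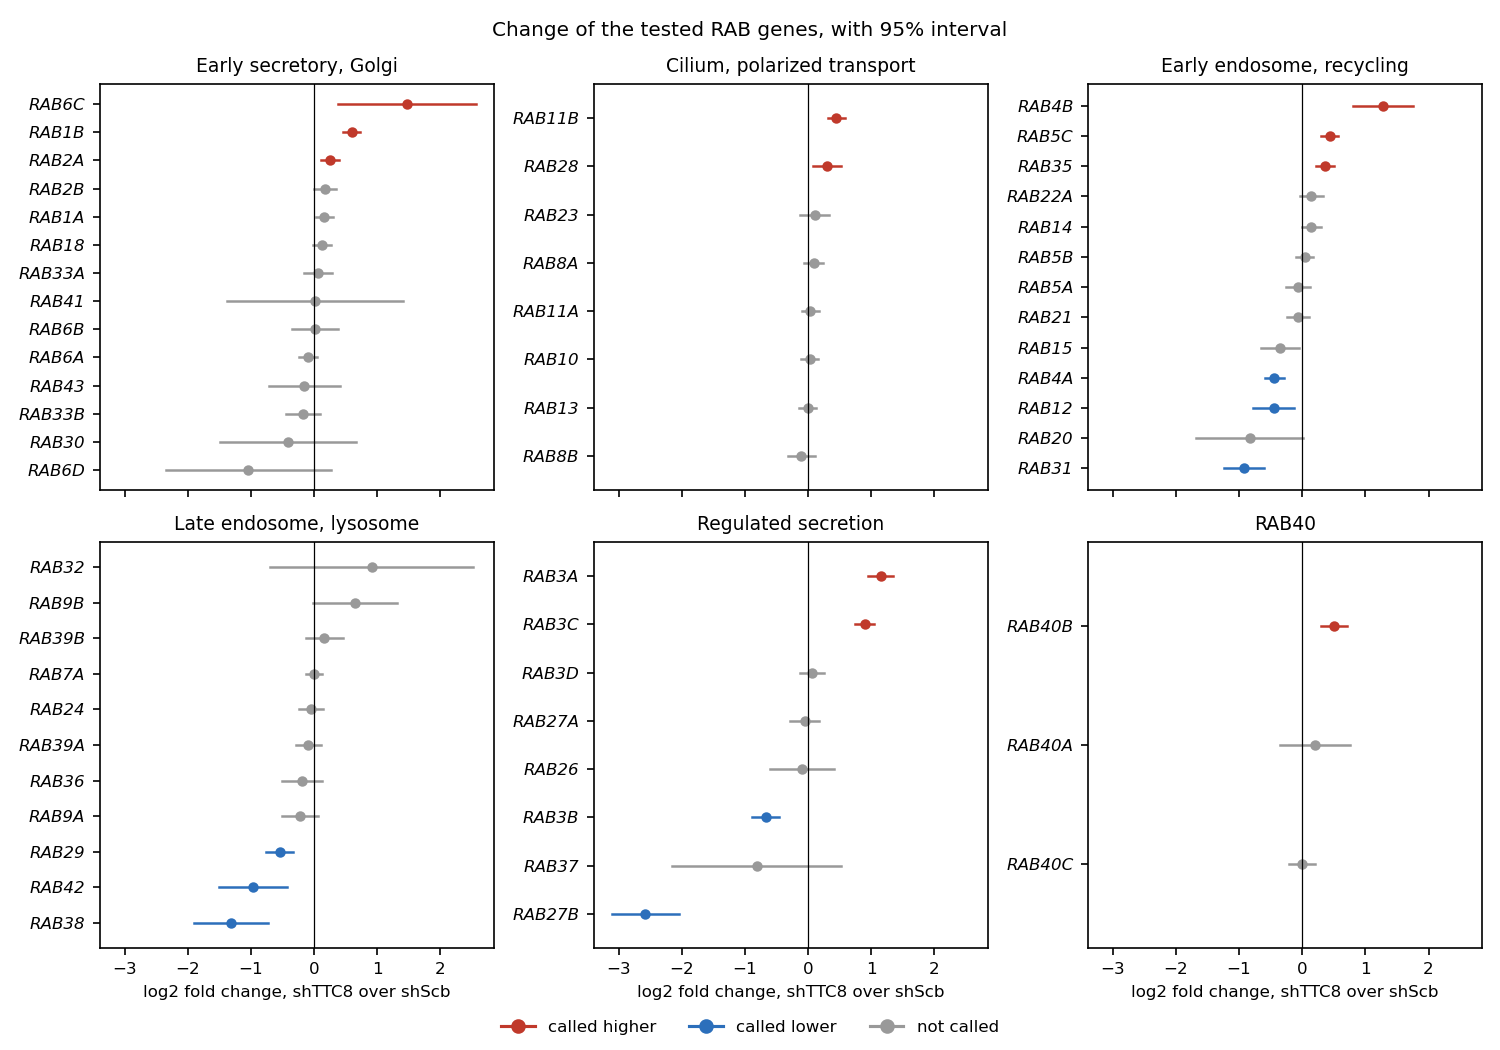
Log2 fold change (x axis, shTTC8 over shScb, 2 libraries each) of the 57 tested RAB genes by role, with points for the estimate and lines for its 95% interval from edgeR. The 11 genes called higher and the 8 called lower are coloured; RAB27B lies farthest from 0, at -2.58, and most genes of the cilium panel lie close to 0.

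The other 7 RAB genes had too few counts for a test. RAB44 had no count in any library. RAB34, which is needed early in cilium formation, had 5, 0, 10 and 2 counts, in the order of shScb 1, shScb 2, shTTC8 1 and shTTC8 2. RAB17 had 0, 5, 0 and 0 counts, RAB19 had 0, 0, 0 and 6, and RAB7B had 4, 2, 0 and 0. RAB25 had 3, 5, 6 and 6 counts and RAB40AL had 4, 6, 6 and 6. None of these genes passed 10 counts in any library. RAB17 and RAB19 share exon positions with AC104667.2 and SLC37A3, which had at least 10% of their counts.

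Per kb of exon, the scale on which levels can be set between genes, RAB1B was the most abundant RAB transcript in shScb, at 116 CPM per kb. RAB7A followed at 70.8 CPM per kb, RAB10 at 59.9, RAB6A at 37.0 and RAB11B at 32.5. Of the 10 highest, 3 were called, namely RAB1B, RAB11B and RAB5C, and all 3 were higher. Among all genes tested 31.9% were called, and 15.2% were called higher. The RAB genes called lower had a median level of 9.13 CPM in shScb, those called higher 44.4 CPM and those not called 23.1 CPM. Summed over the family, the level was 2371 ± 10.2 CPM in shScb and 2617 ± 2.81 in shTTC8 (SD, n = 2), with RAB1B alone going from 234 ± 15.8 to 353 ± 9.30 CPM.

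The RABs of regulated secretion, which act on synaptic vesicles, dense-core granules and secreted endosomes, held the largest fall of the family and 2 of its 4 largest called rises. Of 8 genes, all tested, RAB3A and RAB3C rose, RAB27B and RAB3B fell, and RAB3D, RAB26, RAB27A and RAB37 were not called. Among all genes tested, 15.2% were called higher and 16.7% lower. RAB27B, which docks secretory granules and exosome-bearing endosomes at the plasma membrane, was counted 523 and 397 times in shScb but 45 and 74 times in shTTC8. These are levels of 10.3 and 7.30 CPM against 1.16 and 1.79 CPM. Both shTTC8 libraries lay far below both shScb libraries, and the log2 fold change was -2.58 (SE 0.24, adjusted p = 6.3e-06 in edgeR), a level 5.96-fold lower. RAB27A, the paralog with overlapping functions, had 15.1 and 14.7 CPM in shScb and 13.6 and 15.0 in shTTC8. Its groups overlapped, and its log2 fold change was -0.06 with a 95% interval from -0.28 to 0.17, which does not overlap the interval of RAB27B, from -3.11 to -2.05. RAB27A shares exon positions with PIGBOS1, whose counts came to 45.8% of its own, so its level is less certain.

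RAB3A, the main RAB of synaptic vesicles, had 14.7 and 16.1 CPM in shScb and 34.5 and 33.7 in shTTC8. The shTTC8 libraries were 2.21-fold higher, with a log2 fold change of 1.15 (SE 0.09, adjusted p = 3.4e-07 in edgeR). RAB3A shares 165 exon positions, 9.08% of its exons, with MPV17L2 on the opposite strand. The counts of MPV17L2 came to 102% of those of RAB3A, and the library kit does not mark strand. RAB3C, another vesicle-bound member, had 45.6 and 43.2 CPM in shScb and 81.2 and 84.0 in shTTC8. It rose by a log2 fold change of 0.90 (SE 0.07, adjusted p = 2.41e-07 in edgeR). RAB3B, which serves secretion in endocrine and neuronal cells, went the other way, with 23.2 and 20.9 CPM in shScb and 14.0 and 13.7 in shTTC8. Its log2 fold change was -0.67 (SE 0.10, adjusted p = 1.31e-04 in edgeR). RAB3D, best known from exocrine granules, had 29.3 and 31.2 CPM in shScb and 29.7 and 33.5 in shTTC8, and its groups overlapped. Its log2 fold change of 0.06 had a 95% interval from -0.13 to 0.25, and it shares 144 exon positions with TMEM205, whose counts came to 221% of its own. The RAB3 genes therefore did not move together in these libraries. RAB26, a RAB of secretory granules and of synaptic vesicle autophagy, had 2.39 and 2.48 CPM in shScb and 2.47 and 2.08 in shTTC8. RAB37 had 25, 24, 17 and 4 counts, and its 95% interval ran from -2.16 to 0.52 on the log2 scale. The sign of a change was therefore not resolved at this depth.

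The promoter sequences of the called members of this group are shown because these paralogs carry out related steps but moved in opposite directions. Each is the stretch before the RefSeq transcription start (GRCh38.p14), cut where an exon of a coding gene begins, 5′ to 3′ on the gene's strand. Capitals mark matches, on either strand, to any of 6 short motifs: the E-box CACGTG, the M-box core with the letters CATGTG, the AP-1 motif TGANTCA, the cAMP response element TGACGTCA, the CCAAT box and the GC box GGGCGG. RAB27B lies at chr18:54717607-54717856 (plus strand), RAB3A at chr19:18204075-18204292 (minus), RAB3B at chr1:51990765-51990950 (minus) and RAB3C at chr5:58582825-58583039 (plus).
RAB27B: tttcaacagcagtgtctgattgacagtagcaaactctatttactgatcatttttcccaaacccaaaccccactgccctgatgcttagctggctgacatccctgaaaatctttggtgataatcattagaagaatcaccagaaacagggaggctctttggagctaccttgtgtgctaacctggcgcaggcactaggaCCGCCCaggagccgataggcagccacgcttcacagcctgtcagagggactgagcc
RAB3A: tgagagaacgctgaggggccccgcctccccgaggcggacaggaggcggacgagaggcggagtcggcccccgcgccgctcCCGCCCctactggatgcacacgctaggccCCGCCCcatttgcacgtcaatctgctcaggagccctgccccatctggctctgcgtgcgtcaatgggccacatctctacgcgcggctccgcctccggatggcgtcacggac
RAB3B: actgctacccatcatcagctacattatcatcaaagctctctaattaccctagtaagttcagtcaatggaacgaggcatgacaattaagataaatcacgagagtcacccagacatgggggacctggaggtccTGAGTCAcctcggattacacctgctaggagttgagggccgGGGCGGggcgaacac
RAB3C: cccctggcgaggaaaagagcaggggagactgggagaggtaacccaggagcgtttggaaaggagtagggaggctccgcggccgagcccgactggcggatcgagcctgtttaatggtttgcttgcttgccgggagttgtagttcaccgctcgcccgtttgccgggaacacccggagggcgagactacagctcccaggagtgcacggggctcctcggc
The printed stretch of RAB3B holds TGAGTCA, at position -119 from the start, and a GC box at position -79. That of RAB27B holds a GC box at position -55, that of RAB3A holds 2 GC boxes, and that of RAB3C holds none of the 6 motifs. In the full windows, from 250 bases before to 50 after the start, RAB3A also has CATGTG, at position -25, and another GC box, at position -14, and RAB3B has GC boxes at positions -59 and -51. The 300-base windows had a GC content of 51.0% in RAB27B, 58.7% in RAB3B, 63.3% in RAB3C and 69.7% in RAB3A.

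**Figure D2:**
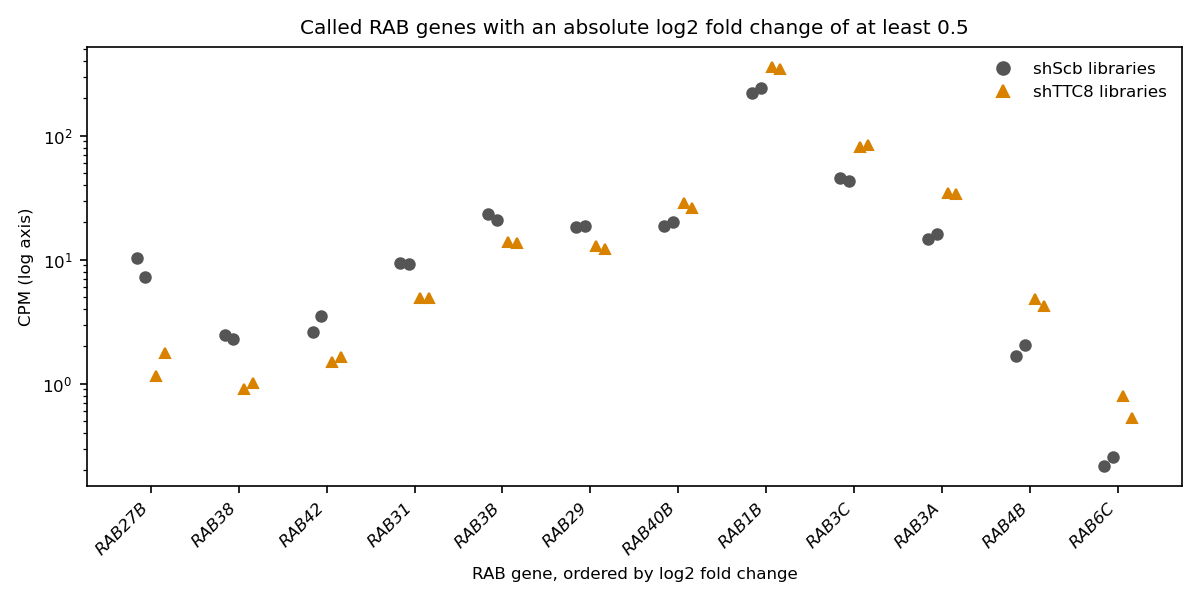
CPM of each library (log y axis) for the 12 called RAB genes with an absolute log2 fold change of at least 0.5, ordered from the largest fall to the largest rise. Circles are the 2 shScb and triangles the 2 shTTC8 libraries; in each gene the groups do not overlap, and RAB6C lies under 1 CPM in every library.

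Among the RABs of the early secretory pathway and the Golgi, which carry cargo from the endoplasmic reticulum through the Golgi stack, 3 of 14 tested genes were higher and 0 were lower. At an unadjusted p under 0.05, 4 of them were higher and 0 lower. Adjusted calls took in 15.2% of all genes as higher and 16.7% as lower, and a direction of this group was not tested. RAB1B, which recruits tethers for vesicles arriving at the Golgi, had 222 and 245 CPM in shScb and 359 and 346 in shTTC8. The groups stood well apart, with a log2 fold change of 0.59 (SE 0.06, adjusted p = 6.25e-06 in edgeR). Its paralog RAB1A had a log2 fold change of 0.16 and an edgeR adjusted p of 0.0517, just past the threshold, and it was called higher in 5 of the 14 alternatives. RAB1A shares exons with CEP68, whose counts came to 59.2% of its own. RAB2A, which acts in traffic between the endoplasmic reticulum and the Golgi, rose by a log2 fold change of 0.25, from 75.5 ± 1.04 to 89.9 ± 5.46 CPM (SD, n = 2). Without shTTC8 replicate 2 the log2 fold change of RAB2A was 0.19 and the edgeR adjusted p 0.173. RAB6C, a retrotransposed copy of RAB6A, had 11, 14, 31 and 22 counts and a log2 fold change of 1.47 (SE 0.51, adjusted p = 0.0399 in edgeR). RAB6C overlaps RAB6C-AS1, which had 17.9% of its counts. Reads of RAB6C and RAB6D cannot safely be told from those of RAB6A, which had 6586 to 9738 counts in the 4 libraries, and the call of RAB6C was lost in 8 of 14 alternatives (in 1 of them it passed no filter and was not tested), so it is uncertain. RAB6A itself, the RAB of transport within and out of the Golgi, had a log2 fold change of -0.10 and was not called.

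The other 9 genes of that group that were tested and not called had log2 fold changes from -1.04 in RAB6D to 0.17 in RAB2B. RAB30 had 17.4 and 29.2 CPM in shScb and 17.9 and 17.1 in shTTC8, so that shScb replicate 2 alone stood high. Its log2 fold change was -0.41, not called, and 0.01 without that library. Without shScb replicate 1 RAB30 was called lower, at -0.74 (edgeR adjusted p = 3.82e-10), and without shScb replicate 2 RAB6A was called lower, at -0.18 (edgeR adjusted p = 0.0128), so the count of 0 lower did not hold in these fits. RAB18, which acts at lipid droplets and the endoplasmic reticulum, had a log2 fold change of 0.13, and RAB33A, RAB33B, RAB41, RAB43 and RAB6B had values between -0.18 and 0.07. RAB43 shares 79.3% of its exon positions with the read-through ISY1-RAB43, which had 56.8% of its counts. RAB33B, RAB6B and RAB2B also share exon positions with genes that had more than 10% of their counts.

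The cilium and polarized transport RABs are the members closest in known function to the BBSome. RAB8A acts with its exchange factor RAB3IP in the growth of the ciliary membrane, RAB11A delivers that factor, RAB23 inhibits hedgehog signalling, and RAB28 is associated with ciliary traffic in photoreceptors. Of 8 tested genes, RAB11B and RAB28 were higher and 0 were lower at an adjusted or an unadjusted p under 0.05. At the adjusted threshold 15.2% of all genes were higher and 16.7% lower, and a direction of this group was not tested. RAB8A had 59.82 and 61.01 CPM in shScb and 64.8 and 63.5 in shTTC8. Both shTTC8 libraries lay slightly above, and the log2 fold change of 0.09 had a 95% interval from -0.06 to 0.23. RAB8B had 30.9 and 26.1 CPM in shScb and 25.2 and 27.7 in shTTC8, with overlapping groups and an interval from -0.32 to 0.11. RAB10, which takes part in polarized and ciliary membrane delivery, had 226 and 208 CPM in shScb and 220 and 222 in shTTC8. Its log2 fold change was 0.02, with an interval from -0.11 to 0.16. RAB11A had 137 and 133 CPM in shScb and 134 and 143 in shTTC8, and its interval ran from -0.09 to 0.17. RAB23 had 12.9 and 13.3 CPM in shScb and 14.3 and 13.8 in shTTC8, with an interval from -0.13 to 0.33. RAB23 shares 57.7% of its exon positions with BAG2, whose counts came to 245% of its own, so its values may hold reads of BAG2. For RAB8A, RAB8B, RAB10, RAB11A and RAB23 a change of 1.5-fold or more lay outside the 95% interval. RAB13, of epithelial junctions and vesicle transport, had a log2 fold change of -0.01. With an offset for GC content and exon length, RAB10 and RAB11A were called higher, at log2 fold changes of 0.13 and 0.18 (edgeR adjusted p = 0.0276 and 0.0100).

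RAB11B, a RAB of the recycling endosome, had 78.4 and 82.0 CPM in shScb and 113 and 106 in shTTC8. Both shTTC8 libraries were above both shScb libraries, with a log2 fold change of 0.45 (SE 0.06, adjusted p = 8.86e-05 in edgeR). The intervals of RAB11B, from 0.31 to 0.58, and of RAB11A did not overlap. RAB28 had 13.6 and 12.8 CPM in shScb and 15.99 and 16.5 in shTTC8, with a log2 fold change of 0.30 (SE 0.10, adjusted p = 0.0393 in edgeR). That call was lost in 6 of 14 alternatives, DESeq2 among them with an adjusted p of 0.0977.

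The early endosome and recycling RABs sort internalised receptors back to the surface or onward to degradation. Of 13 tested genes, 3 were higher and 3 lower, where 15.2% of all genes were called higher and 16.7% lower. RAB4B, a RAB of rapid recycling, had 1.66 and 2.06 CPM in shScb and 4.84 and 4.20 in shTTC8. It was 2.42-fold higher, with a log2 fold change of 1.28 (SE 0.22, adjusted p = 4.71e-04 in edgeR). RAB4A, its far more abundant paralog, had 70.9 and 72.5 CPM in shScb and 51.0 and 54.5 in shTTC8. RAB4A fell by 0.44 on the log2 scale (SE 0.07, adjusted p = 2.0e-04 in edgeR). RAB5C, one of the RABs that drive fusion of early endosomes, had 81.2 and 85.7 CPM in shScb and 117 and 108 in shTTC8, a log2 fold change of 0.43. RAB5A and RAB5B, which act at the same step, had log2 fold changes of -0.06 and 0.04, with overlapping groups in both. RAB35, of a fast route from endosomes to the plasma membrane, had a log2 fold change of 0.36 and non-overlapping groups.

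RAB31, which acts between the trans-Golgi network and endosomes, had 9.40 and 9.25 CPM in shScb and 4.92 and 4.90 in shTTC8. The libraries of each group were close to each other, and the log2 fold change was -0.92 (SE 0.15, adjusted p = 2.09e-04 in edgeR). RAB12, which takes recycling receptors to lysosomes, had 8.92 and 8.94 CPM in shScb and 5.84 and 7.22 in shTTC8, a log2 fold change of -0.45 (edgeR adjusted p = 0.0326). The call of RAB12 was lost in 7 of 14 alternatives, and without shTTC8 replicate 1 its log2 fold change was -0.31 and its edgeR adjusted p 0.279. RAB14, RAB15, RAB20, RAB21 and RAB22A were not called, with log2 fold changes from -0.83 in RAB20 to 0.15 in RAB22A. RAB20 was counted 58 and 67 times in shScb but 16 and 38 times in shTTC8, and its 95% interval ran from -1.68 to 0.02. Without shTTC8 replicate 2 RAB20 was called lower, at -1.52 (edgeR adjusted p = 0.0229).

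The late endosome, lysosome and autophagy RABs had 3 of 11 tested genes lower and 0 higher, also 3 and 0 at an unadjusted p under 0.05. Beside these adjusted calls, 16.7% of all genes were lower and 15.2% higher, and a direction of the group was not tested. Without shTTC8 replicate 1, 2 of its genes were called higher, RAB32 at 1.62 and RAB9B at 0.95 on the log2 scale (edgeR adjusted p = 0.0101 and 0.0489). RAB38, which with RAB32 delivers cargo to melanosomes and other lysosome-related organelles, had 2.49 and 2.28 CPM in shScb and 0.901 and 1.01 in shTTC8. It was 2.49-fold lower, with a log2 fold change of -1.31 (SE 0.27, adjusted p = 0.00192 in edgeR). RAB32 had 31, 22, 13 and 65 counts, so that the shTTC8 libraries lay on both sides of the shScb libraries. It was not called with all 4 libraries, and its log2 fold change was -0.60 without shTTC8 replicate 2. RAB42 had 2.63 and 3.50 CPM in shScb and 1.49 and 1.64 in shTTC8, a log2 fold change of -0.97 (SE 0.25, adjusted p = 0.00836 in edgeR). Without shScb replicate 2, RAB42 had a log2 fold change of -0.75 and an edgeR adjusted p of 0.0676. RAB29, which recruits the kinase LRRK2 to Golgi and lysosomal membranes, had 18.2 and 18.8 CPM in shScb and 13.0 and 12.3 in shTTC8. Its log2 fold change was -0.55 (SE 0.10, adjusted p = 8.81e-04 in edgeR). RAB7A is the general RAB of late endosomes and, per kb of exon in shScb, the second most abundant of the family. It had 189 and 195 CPM in shScb and 193 and 192 in shTTC8. Its log2 fold change was 0.00, with a 95% interval from -0.12 to 0.13. RAB9A, RAB9B, RAB24, RAB36, RAB39A and RAB39B were not called, with values from -0.22 in RAB9A to 0.65 in RAB9B. RAB24 shares 44.8% of its exon positions with MXD3, whose counts were 128% of its own.

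In the RAB40 group, whose proteins are substrate adaptors of a cullin ubiquitin ligase, 1 of 3 tested genes was higher and 0 were lower. Among all genes tested, 15.2% were called higher and 16.7% lower. The gene called higher, RAB40B, had 18.8 and 20.3 CPM in shScb and 28.9 and 26.3 in shTTC8. Its log2 fold change was 0.50 (SE 0.09, adjusted p = 8.82e-04 in edgeR). RAB40C had a log2 fold change of -0.004, with a 95% interval from -0.21 to 0.20, and RAB40A one of 0.21, from -0.35 to 0.76. RAB40A, like RAB37, overlaps an antisense gene with at least 10% of its counts. Over the whole family, 27 of the 38 genes not called had a 95% interval inside a 1.5-fold change in either direction. The other 11 had wider intervals, so a change of 1.5-fold was not excluded by these libraries.

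Because several paralogs moved apart, the share of each member within its paralog group changed, as computed per kb of exon in each library. RAB3A made up 38.1% and 40.2% of the summed RAB3 CPM per kb in shScb and 53.9% and 51.7% in shTTC8. RAB3B went from 8.50% and 7.39% to 3.09% and 2.98%. RAB3C stood at 22.2% and 20.3% and then 23.9% and 24.2%, and RAB3D went from 31.2% and 32.1% to 19.1% and 21.1%. Exon length here is that of all annotated exons merged, and the ranking within a group depends on it. By share of RAB3 counts, RAB3A went from 13.0% and 14.5% to 21.6% and 20.5%. RAB3C was then the largest member and rose, from 40.4% and 38.8% to 50.9% in both shTTC8 libraries. RAB3B and RAB3D fell on that scale too. The summed RAB3 level was 113 and 111 CPM in shScb and 159 and 165 in shTTC8. RAB27B made up 34.1% and 27.3% of the summed RAB27 CPM per kb in shScb and 6.03% and 8.25% in shTTC8. RAB4B rose from 1.94% and 2.34% of the RAB4 pair to 7.40% and 6.10%, so RAB4A still made up most of it. RAB1B made up 79.3% and 81.1% of the RAB1 pair in shScb and 85.0% and 84.0% in shTTC8. RAB11B took 56.8% and 58.7% of the RAB11 pair and then 65.9% and 63.0%, and RAB5C took 55.6% and 58.5% of the RAB5 genes and then 65.7% and 62.9%. With 2 libraries against 2 no exact test of a share can pass the threshold, and none was made.

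**Figure D3:**
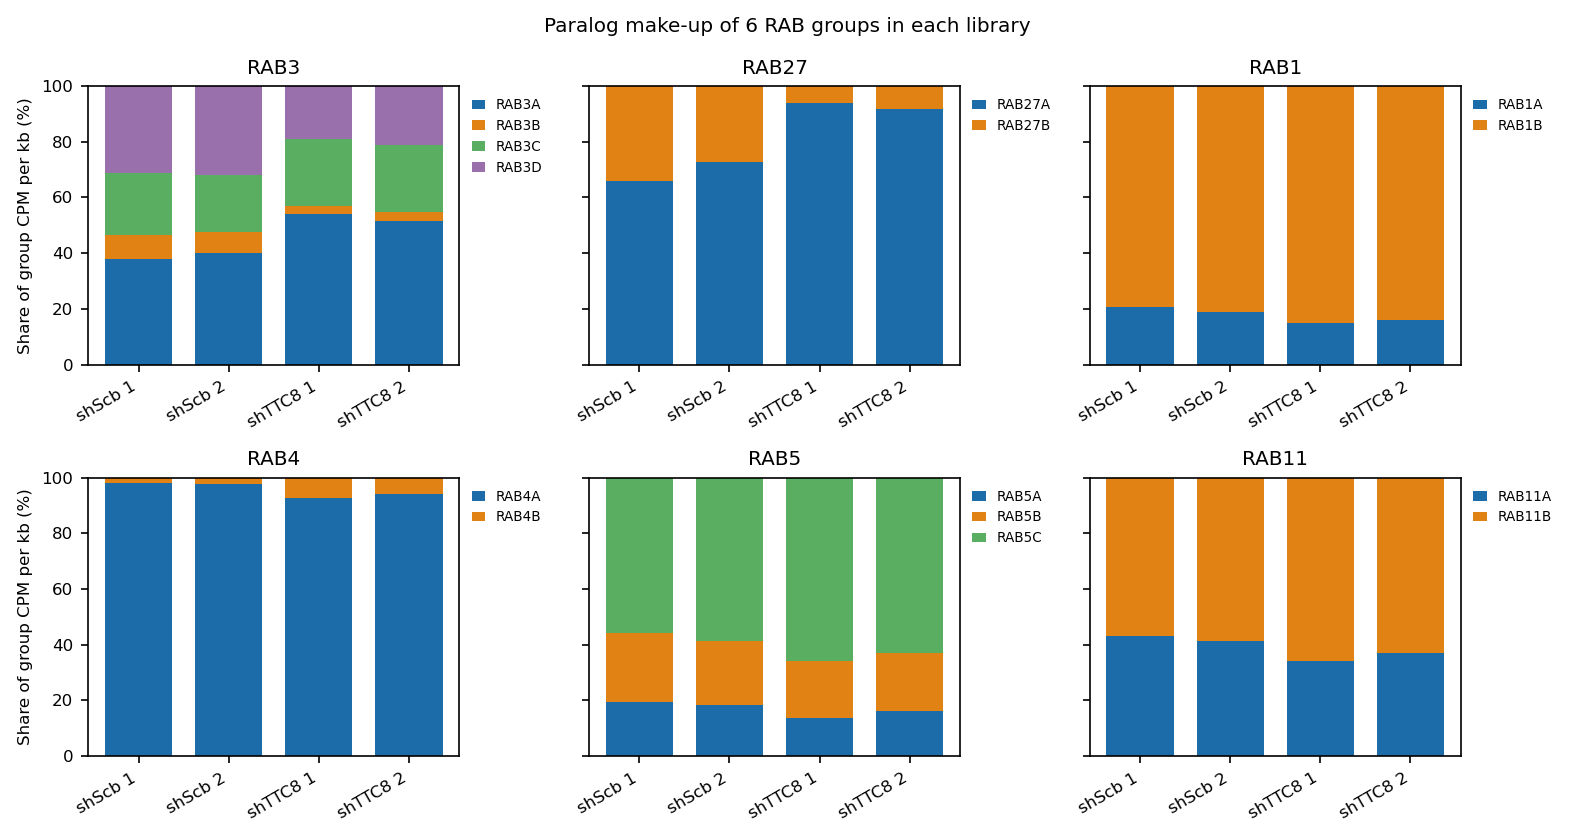
Share of each paralog (y axis, percent of the group's summed CPM per kb) in each of the 4 libraries (x axis) for 6 RAB groups. The RAB27B part shrinks from 34.1% and 27.3% in shScb to 6.03% and 8.25% in shTTC8, and the RAB3A part grows from 38.1% and 40.2% to 53.9% and 51.7%.

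The promoter of RAB4A is shown for the same reason, since RAB4A fell where RAB4B rose. The stretch lies at chr1:229270861-229271061 (GRCh38.p14, plus strand), and capitals mark the motifs listed above.
RAB4A: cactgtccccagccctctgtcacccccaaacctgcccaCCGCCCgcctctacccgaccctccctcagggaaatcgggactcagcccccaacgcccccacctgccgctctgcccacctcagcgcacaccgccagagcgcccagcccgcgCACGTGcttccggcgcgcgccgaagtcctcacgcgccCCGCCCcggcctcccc
It holds the E-box CACGTG at position -102. A RefSeq promoter window of 300 bases was at hand for 51 of the 64 RAB genes, 1 window a gene. CACGTG was in 3 of 6 windows of RAB genes called lower (RAB4A, RAB31 at position -60 and RAB29 at position 20), in 0 of 10 called higher and in 3 of 29 not called. All protein-coding promoters of the table held it in 8.82% of windows. The CCAAT box was in 4 of 10 windows of genes called higher (RAB11B, RAB40B, RAB4B and RAB5C), in 0 of 6 called lower, in 9 of 29 not called and in 36.4% of coding promoters. The GC box was in 8 of 10 windows of genes called higher, 5 of 6 called lower, 25 of 29 not called and 58.3% of coding promoters. TGACGTCA was in no window of a called RAB gene. The motifs, and RAB4A for printing, were chosen after these values were seen, and a match is a stretch of letters and not a measured binding site.

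Position and base composition of the called genes were looked at after their values were known. Chromosomes 18, 1 and 19 are named because of their calls. None of the 6 tested RAB genes of the X was called, and none of the 4 of chromosome 3. On chromosome 18 all 3 tested RAB genes were lower (RAB27B, RAB31 and RAB12), where 22.6% of the tested genes of that chromosome were lower. On chromosome 1, RAB3B, RAB4A, RAB29 and RAB42 were lower and RAB13 was not called, where 17.2% of tested genes were lower. On chromosome 19, RAB3A, RAB4B and RAB11B of 5 RAB genes were higher, where 253 of 1265 tested genes were higher. The median change of the tested protein-coding genes within 1 Mb was set beside that of the RAB gene itself. It had the same sign for 8 of 11 genes called higher, 6 of 8 called lower and 19 of 38 not called. For RAB27B that median was -0.47 over 5 neighbours, 3 of them called lower and 0 higher. For RAB3C it was 0.87 over 2 neighbours, and both of these neighbours were called higher. The median transcript GC content was 53.5% in the RAB genes called higher, 45.1% in those called lower and 43.3% in those not called. Their ranges overlapped, at 37.7% to 63.5%, 35.9% to 53.3% and 36.2% to 64.4%, in the same order. With an offset for GC content and exon length, 18 RAB genes were called higher and 9 lower, and all 19 calls made without it were kept. Of all genes, 3341 were then called higher and 3369 lower, beside 2974 and 3284 without it. With the offset the share of RAB genes called was thus above that of all genes. The 8 genes gained were RAB10, RAB11A, RAB14, RAB18, RAB1A, RAB22A and RAB2B, each higher, and RAB15, which was lower.

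The machinery that acts on RABs was described with 11 lists of 245 genes, of which 234 were tested. Of all genes 15.2% were called higher and 16.7% lower. In these lists 46 genes were called higher and 56 lower, or 43.6%, against 31.9% of all genes and 39.2% of protein-coding genes. Without shTTC8 replicate 1, 25 were called higher and 42 lower. In the lists that load and carry RABs, 4 of 9 genes of prenylation and membrane cycling were higher and 2 lower. GDI2, a GDP dissociation inhibitor, had a log2 fold change of -0.20, CHML, an escort protein for prenylation, one of -0.76, and RABAC1, a prenylated RAB acceptor, one of 0.34. Of 48 exchange factors 11 were higher and 9 lower. MADD, which activates RAB3 and RAB27, had 76.3 and 81.0 CPM in shScb and 116 and 105 in shTTC8 (log2 fold change 0.49). RAB3IL1, an exchange factor related to RAB3IP, fell by 0.82 on the log2 scale, TRAPPC3, of the complex that activates RAB1, rose by 0.62, and TRAPPC6B, of the same complex, fell by 0.59. RAB3IP, the exchange factor of RAB8, had 1.35 and 1.47 CPM in shScb and 2.70 and 2.25 in shTTC8, with a log2 fold change of 0.81 (edgeR adjusted p = 0.0266).

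Of 40 GTPase activating proteins 8 were higher and 10 lower, where 15.2% of all genes were called higher and 16.7% lower. TBC1D8 had a log2 fold change of -1.10, TBC1D4, the insulin-regulated one that acts on RAB10, one of -0.70, TBC1D2B one of -0.67 and EVI5L one of 0.70. Among 16 tested genes of the list for effectors of RAB3 and RAB27, some of them only relatives of effectors, 3 were higher and 5 lower. RIMS2, the RAB3-binding scaffold of the active zone, had 48.5 and 41.9 CPM in shScb and 23.8 and 24.2 in shTTC8 (log2 fold change -0.91). SYTL4, the granule-bound RAB27 effector granuphilin, fell by 0.70 on the log2 scale. RIMS3, in the list as a relative of RIMS2, fell by 0.51. MLPH, which links RAB27A to myosin on melanosomes, had 1.11 and 1.27 CPM in shScb and 0.103 and 0.193 in shTTC8 (log2 fold change -2.97). Effectors of this list went both ways: RIMS1, at under 1 CPM in every library, and RPH3A, which binds RAB3A, had log2 fold changes of 1.84 and 0.51 and were called higher. RPH3A and RIMS1 were named after their values were seen.

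Of 25 genes in the list for effectors of RAB8 and RAB11, not all of them direct effectors, 3 were higher and 5 lower. EXOC4, a subunit of the exocyst, had a log2 fold change of -0.43, CEP290, a protein of the ciliary transition zone, -0.67, RAB11FIP2 -0.38 and EHD3 0.57. Of 19 genes in the list for endosomal effectors of RAB4, RAB5 and RAB7, 1 was higher and 8 were lower. These counts stand beside 15.2% of all genes higher and 16.7% lower. The median log2 fold change of the list was -0.16, beside 0.004 for all genes, and a direction of the list was not tested. APPL2 had 38.8 and 41.9 CPM in shScb and 22.6 and 26.2 in shTTC8, a log2 fold change of -0.72. RBSN, which binds RAB4 and RAB5, had one of -0.59, APPL1 one of -0.48 and RILPL1, in the list as a relative of RILP, one of -0.50. Of 16 Golgi effectors of RAB1 and RAB6, 2 were higher and 5 lower. The golgin GOLGA4 fell by 1.47 and the RAB1-bound tether USO1 by 0.50 on the log2 scale, KIF20A had a value of -0.33 and BICD2 one of 0.29.

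Of 6 genes in the list for kinases and phosphatases of RABs, 3 were higher and 1 lower, where 15.2% of all genes were called higher and 16.7% lower. LRRK2, which phosphorylates several RABs and is bound by RAB29, had 1.17 and 1.75 CPM in shScb and 6.02 and 5.92 in shTTC8 (log2 fold change 2.03, edgeR adjusted p = 9.72e-06). PINK1 rose by 0.40, MAP4K4 fell by 0.22, and PPM1H, a phosphatase that acts on RABs, was under 1 CPM in every library. Of 7 RAB-like GTPases 2 were higher and 1 lower. IFT27, a subunit of the intraflagellar transport train that works with the BBSome, had 42.1 and 44.7 CPM in shScb and 54.9 and 60.3 in shTTC8 (log2 fold change 0.41, edgeR adjusted p = 9.29e-04). RASEF had a value of -0.75 and RABL6 one of 0.30. In a related GTPase family, 7 of 27 ARF and ARL genes were higher and 4 lower, with log2 fold changes of 0.69 in ARF3, 0.57 in ARL2 and -0.92 in SAR1A.

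**Figure D4:**
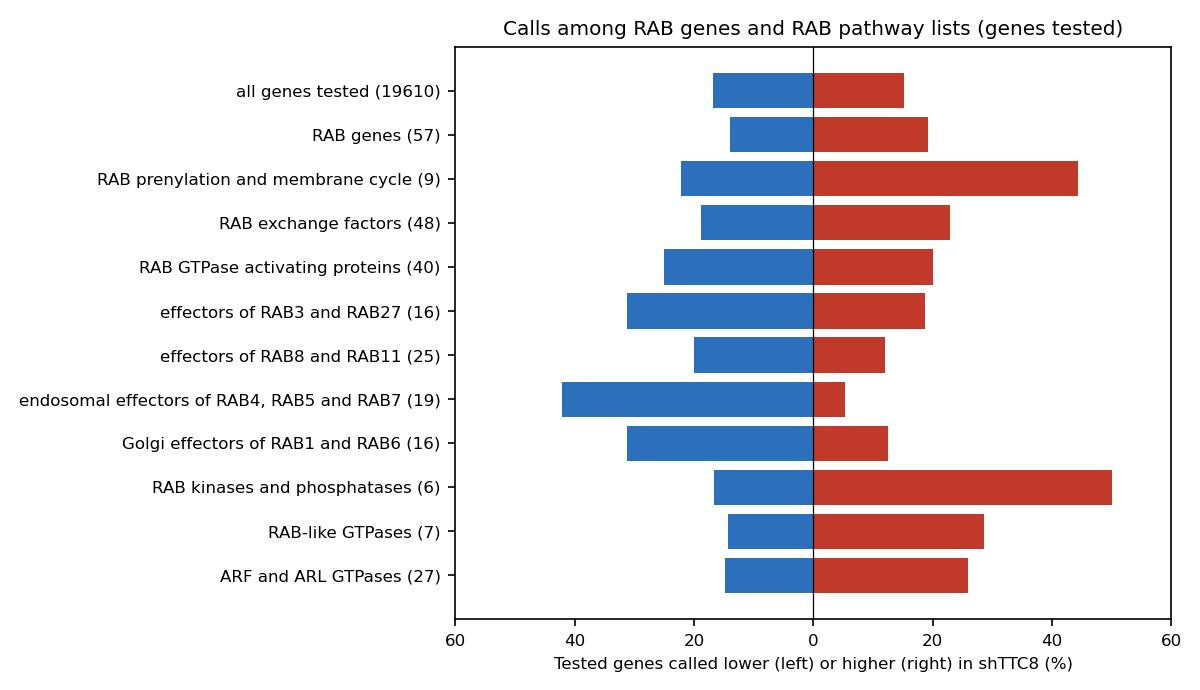
Percent of tested genes called lower (bars to the left) or higher (bars to the right) in shTTC8 for all genes, the RAB genes and 10 of the 11 lists, with the number of tested genes in parentheses. The RAB genes, with 11 of 57 higher and 8 of 57 lower, lie close to all genes, of which 15.2% were higher and 16.7% lower. The endosomal effector list has 8 of 19 lower and 1 higher.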

How the data were processed

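RNA was measured in 4 samples of SK-N-BE(2) cells. Per the labels' protocols, TRIzol was used for extraction of total RNA and the TruSeq RNA kit, which keeps no strand information, for the libraries. The aligner HISAT2 2.2.0 and the build hg38 are named per the submitters' processing notes, and the counter is not given in the sources used here. Deposited values are raw counts for each Ensembl gene, not normalized by the authors. Symbols came from a gene name table or GENCODE 29 (56591 of 64252 IDs), and positions and exon lengths from GENCODE 29.

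In R 4.3.3, edgeR 4.0.16 was used on genes kept by filterByExpr (19610), with TMM scaling and the robust quasi-likelihood F test on group, two-sided, and p-values were adjusted by Benjamini-Hochberg over all of these genes (threshold 0.05). The script was tested on simulated counts. CPM use TMM-scaled library sizes, errors on CPM are SDs over 2 libraries, and an SE is the absolute log2 fold change divided by the root of F. An overlap is named where the other gene had at least 10% of a member's counts. Replicates correlated at r = 0.987 in shScb and 0.986 in shTTC8 on log2 CPM (prior count 2) across genes, which are not independent replicates. Their chi-square per degree of freedom, 12.4 and 6.69, was far over sampling noise, so they were counted as separate. The biological coefficient of variation was 10.5%. Limits from counts cover counting error only. Promoters were RefSeq windows (GRCh38.p14), the most 5′ one per gene.

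The alternatives were scaling by RLE or by library size alone, a filter of 1 CPM in 2 libraries or none, limma-voom (limma 3.58.1), DESeq2 1.42.0, a non-robust fit, a replicate block, an offset for GC content and exon length (lowess span 0.3), each library left out, and thinning to equal depth. Members and lists were chosen with earlier results of these data known. Full values are given for called members with an absolute log2 fold change of at least 0.5 and for 15 RABs of cilium and secretion whatever their call; in each list, up to 4 called genes by smallest p are named, plus RAB3IP, IFT27 and CEP290. Some genes and 1 list that this rule covers are not reported here.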

Additional observations from a re-analysis of the deposited data

How the results depend on the processing

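Of the 19 calls among RAB genes, 14 held in each of the 14 alternatives, and no called RAB gene changed direction. RAB12, RAB28, RAB6C, RAB42 and RAB2A lost their call in at least 1. In the alternatives other than the GC and length offset, 9 to 12 RAB genes were called higher and 7 to 9 lower. That offset gave 18 and 9, where 3341 of all genes were called higher and 3369 lower. The cause was not tested. Leaving out 1 library at a time gave 9 to 12 higher and 7 to 9 lower. With library size alone the median log2 fold change of the RAB genes was 0.0574, beside 0.0159, and that of all genes 0.0449, since no scaling factor is then applied. With each library left out in turn, 1880 to 3395 of all genes were called higher and 25 to 49 genes of the pathway lists, the lowest of each without shTTC8 replicate 1.

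Deviations of same-numbered libraries from their group means correlated at 0.03 across genes. With 2 libraries a group, this value cannot show whether same-numbered libraries shared a culture or a day of work. With the replicate number as a block, 11 RAB genes were called higher and 8 lower, the same 19 genes, and 3092 of all genes higher and 3343 lower.

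Values of RAB genes that were not called changed sign 38 times. Without the low-count filter the log2 fold change was -0.00214 for RAB10, -0.00259 for RAB41, -0.00932 for RAB6B and -0.0241 for RAB7A. With library size alone the log2 fold change was 0.0342 for RAB13 and 0.0379 for RAB40C. With the GC and length offset the log2 fold change was 0.108 for RAB21, 0.0815 for RAB27A, -0.0465 for RAB33A, 0.0215 for RAB5A, -0.00294 for RAB6B and 0.0408 for RAB8B. Thinned to equal depth the log2 fold change was 0.00103 for RAB40C. With each library left out in turn it ran from -0.0343 to 0.0808 for RAB10, -0.00487 to 0.0785 for RAB11A, -0.0168 to 0.00333 for RAB13, -0.167 to 0.0738 for RAB24, -0.233 to 0.0220 for RAB26, -0.124 to 0.0102 for RAB27A, -0.739 to 0.00936 for RAB30, -0.595 to 1.62 for RAB32, -0.0236 to 0.163 for RAB33A and -0.0224 to 0.144 for RAB3D. It ran from -0.0783 to 0.557 for RAB40A, -0.104 to 0.0916 for RAB40C, -0.558 to 1.04 for RAB41, -0.470 to 0.198 for RAB43, -0.152 to 0.0178 for RAB5A, -0.00658 to 0.0856 for RAB5B, -0.0871 to 0.112 for RAB6B, -0.0229 to 0.0237 for RAB7A and -0.226 to 0.0171 for RAB8B. The cause of these changes was not tested. The limit of depth is plainest for RAB6C, RAB6D, RAB32, RAB37 and RAB41, each under 100 counts in every library.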
